A study of Rattus norvegicus with 10 samples.

Results

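The urea cycle genes measured here are 8 liver genes: Gls2, Nags, Cps1, Otc, Slc25a15, Ass1, Asl and Arg1. They were chosen by rat gene symbol, with no measured value in the choice, and are 8 of the 13826 genes that the array's probes name. Each is named by 1 probe, so no second probe checks any of them. Liver RNA came from 5 male Wistar rats given DEN/TAA and 5 male Wistar control rats given vehicle only, with 1 array per rat. DEN is diethylnitrosamine, a carcinogen that liver enzymes convert into a DNA-alkylating form. TAA is thioacetamide, which hepatocytes oxidise to reactive products and which causes fibrosis when given repeatedly. The treated rats received 1 intraperitoneal injection of 200 mg/kg DEN at 6 weeks of age and, from 2 weeks later, 200 mg/kg TAA in repeated cycles of 3 weeks on and 1 week off. The labels give a treatment of 23 weeks and also an age of 23 weeks for every rat, treated and control, so how long it lasted cannot be read from them. The series title presents the treatment as a model of liver cancer arising in cirrhosis, and the labels do not say which part of a liver was sampled.

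Ammonia is toxic, and the liver turns it into urea, which the kidney excretes. In hepatocytes the cycle starts in mitochondria, where ammonia and bicarbonate are joined to carbamoyl phosphate, and is completed in the cytosol, where urea is split from arginine and ornithine returns to the mitochondria. Hepatocytes near the portal vein carry most of this pathway, while a ring of cells around the central vein captures the ammonia that escapes it as glutamine.

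Values are log2 processed Cy3 signals after subtraction of each array's 75th percentile of signal, called scaled log2 signals below, and differences are DEN/TAA minus control. Probes differ in brightness, so one gene's level is not set against another's. All 8 genes were well above background on all 10 arrays, and no spot was saturated. All 8 were lower in DEN/TAA livers (limma adjusted p between 6.12e-06 and 0.0111), where 16.3% of the 6850 genes tested were lower and 39.2% higher; with the arrays left unscaled none was called and 5 of the differences were above 0. The median difference was -1.28 over the 8 genes and 0.33 over all genes. The p-values measure the spread between these rats, and in bulk liver RNA fewer cells of a type and less RNA per cell cannot be told apart.

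Promoter sequences are shown for 3 genes: Cps1, the entry enzyme and the gene that varied most among control rats, and Gls2 and Ass1, which had the largest differences. They are RefSeq sequences of rat assembly GRCr8, 250 bases before to 50 bases after the start, read 5′ to 3′ on the gene's strand. Capitals mark a match to 1 of 4 motifs searched on both strands.
Cps1 at chr9:76063613-76063912 on the + strand: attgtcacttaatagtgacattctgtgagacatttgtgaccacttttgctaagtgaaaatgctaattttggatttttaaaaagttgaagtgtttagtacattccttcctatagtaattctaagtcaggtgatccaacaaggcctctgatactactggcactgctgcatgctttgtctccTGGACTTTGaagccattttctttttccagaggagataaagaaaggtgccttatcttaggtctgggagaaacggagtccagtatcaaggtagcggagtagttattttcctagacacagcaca
Gls2 at chr7:1201629-1201928 on the + strand: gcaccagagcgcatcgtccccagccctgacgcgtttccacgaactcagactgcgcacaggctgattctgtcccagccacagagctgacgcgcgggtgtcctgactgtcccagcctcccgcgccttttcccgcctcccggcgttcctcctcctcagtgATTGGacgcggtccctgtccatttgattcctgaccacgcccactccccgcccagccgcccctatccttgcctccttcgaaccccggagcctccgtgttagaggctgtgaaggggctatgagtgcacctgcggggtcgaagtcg
Ass1 at chr3:35149480-35149779 on the + strand: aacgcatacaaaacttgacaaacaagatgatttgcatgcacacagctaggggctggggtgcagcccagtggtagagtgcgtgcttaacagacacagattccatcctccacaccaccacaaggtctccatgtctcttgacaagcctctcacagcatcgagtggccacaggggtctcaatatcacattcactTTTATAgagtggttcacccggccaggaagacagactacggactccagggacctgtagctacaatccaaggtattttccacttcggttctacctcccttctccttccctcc

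The capitals in the Cps1 promoter are the motif CAAAGTCCA of HNF4, a nuclear receptor that keeps hepatocytes differentiated, read on the opposite strand and beginning at position -71 from the start. The motif was found in 1 of the 8 windows of the urea cycle genes and in 0.391% of all 33469 promoter windows. The capitals in Ass1 are the TATA box letters TATAAA on the opposite strand at -60, found in 1 of 8 windows and in 14.2% of all windows. Those in Gls2 are the CCAAT box letters CCAAT on the opposite strand at -93, found in 2 of 8 windows (the other in Slc25a15) and in 37.5% of all. The C/EBP motif TTGCNNAA was found in 0 of the 8 windows and in 10.6% of all. The windows cover 7 of the genes, Gls2 with 2 starts, and none was at hand for Arg1. A match is a description of these letters and was not tested as a binding site.

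Ammonia and the activator of the cycle come first. Gls2, the liver glutaminase, releases ammonia from glutamine in periportal mitochondria. It had the largest difference of the 8 genes. Its scaled log2 signal was -1.13, -1.73, -1.40, -1.24 and -0.02 in DEN/TAA rats 1 to 5, against 0.49, 1.50, 1.20, 1.47 and 1.42 in control rats 1 to 5. Every DEN/TAA liver lay below every control liver, with DEN/TAA rat 5 nearest to the controls and control rat 1 the lowest control. The difference was -2.32 (SE 0.31, limma adjusted p = 8.18e-05), which puts Gls2 at 20.0% of the control level.

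Nags, N-acetylglutamate synthase, makes the compound without which carbamoyl phosphate synthetase is inactive. Nags read -2.49, -2.50, -2.93, -2.94 and -1.49 in DEN/TAA rats 1 to 5, against -1.42, -1.12, -1.60, -1.02 and -1.57 in control rats 1 to 5. DEN/TAA rats 1 to 4 lay below all controls, and DEN/TAA rat 5 lay within the control range. The difference was -1.12 (SE 0.27, limma adjusted p = 0.00385), or 45.9% of control.

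Cps1, carbamoyl phosphate synthetase 1, catalyses the first and rate-limiting step. Cps1 read -2.12, -2.33, -1.85, -1.98 and -0.63 in DEN/TAA rats 1 to 5, against 0.20, -0.14, -0.32, 0.53 and -1.75 in control rats 1 to 5. DEN/TAA rat 5 was high in its group. Control rat 5, whose array was the dimmest of all, was the lowest control and lay below DEN/TAA rat 5. The means were -1.78 ± 0.67 in DEN/TAA and -0.29 ± 0.88 in control livers (SD, n = 5 each), the widest control spread among the 8 genes. The difference was -1.49 (SE 0.42, 95% confidence interval -2.42 to -0.56, limma adjusted p = 0.0111), or 35.6% of control. Without both rats numbered 5, chosen after the data were seen, it was -2.14 (SE 0.21). These rats held the highest treated and the lowest control value of Cps1, so leaving them out had to widen the difference. All 8 genes were lower without these rats too, where 17.2% of all genes were lower and 40.1% higher.

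Otc, ornithine transcarbamylase, is X-linked and joins carbamoyl phosphate to ornithine to give citrulline. Otc read 0.30, -0.37, 0.17, -0.12 and 0.71 in DEN/TAA rats 1 to 5, against 1.37, 1.40, 1.24, 1.59 and 1.21 in control rats 1 to 5. The groups did not overlap, and the controls lay within a narrow band (SD 0.15) while the DEN/TAA livers were spread more widely (SD 0.41). The difference was -1.22 (SE 0.20, limma adjusted p = 0.000328), or 42.8% of control.

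Slc25a15 is the mitochondrial carrier that exchanges cytosolic ornithine for citrulline and so links the mitochondrial and the cytosolic steps. It read -2.48, -2.84, -2.73, -2.98 and -1.21 in DEN/TAA rats 1 to 5, against -0.98, -1.04, -1.16, -0.70 and -1.87 in control rats 1 to 5. As with Cps1, DEN/TAA rat 5 was above the other treated rats and control rat 5 below the other controls, so the groups overlapped. The difference was -1.30 (SE 0.33, limma adjusted p = 0.00615), or 40.7% of control, and -1.79 (SE 0.17) without both rats numbered 5. Leaving out the highest treated and the lowest control value had to widen the difference, so the second value is a description only.

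The cytosolic enzymes follow. Ass1, argininosuccinate synthase, adds the second nitrogen from aspartate. Ass1 read 1.75, 1.93, 2.14, 2.15 and 1.71 in DEN/TAA rats 1 to 5, against 4.37, 4.35, 3.93, 3.51 and 3.87 in control rats 1 to 5. The groups were well apart (SD 0.21 in DEN/TAA and 0.36 in control livers). Here alone among the 8 genes DEN/TAA rat 5 was the lowest treated rat and not the highest. The difference was -2.07 (SE 0.19, limma adjusted p = 6.12e-06), or 23.8% of control.

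Asl, argininosuccinate lyase, splits argininosuccinate into arginine and fumarate. Asl read -1.95, -2.32, -2.27, -2.22 and -1.18 in DEN/TAA rats 1 to 5, against -0.67, -0.90, -1.14, -0.05 and -0.86 in control rats 1 to 5. The groups did not overlap, though DEN/TAA rat 5 lay just under control rat 3. The difference was -1.26 (SE 0.26, limma adjusted p = 0.00169), or 41.7% of control.

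Arg1, the liver arginase, releases urea and regenerates ornithine. Arg1 read 2.89, 2.72, 2.46, 2.19 and 3.64 in DEN/TAA rats 1 to 5, against 3.22, 4.09, 3.71, 3.62 and 3.98 in control rats 1 to 5. DEN/TAA rat 5 lay among the controls, and DEN/TAA rats 1 to 4 below all of them. The difference was -0.95 (SE 0.27, limma adjusted p = 0.0103), or 51.9% of control, the smallest of the 8. With quantile normalisation it was -0.72 (limma adjusted p = 0.0534) and in the authors' table -0.55 (limma adjusted p = 0.0908).

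**Figure D1:**
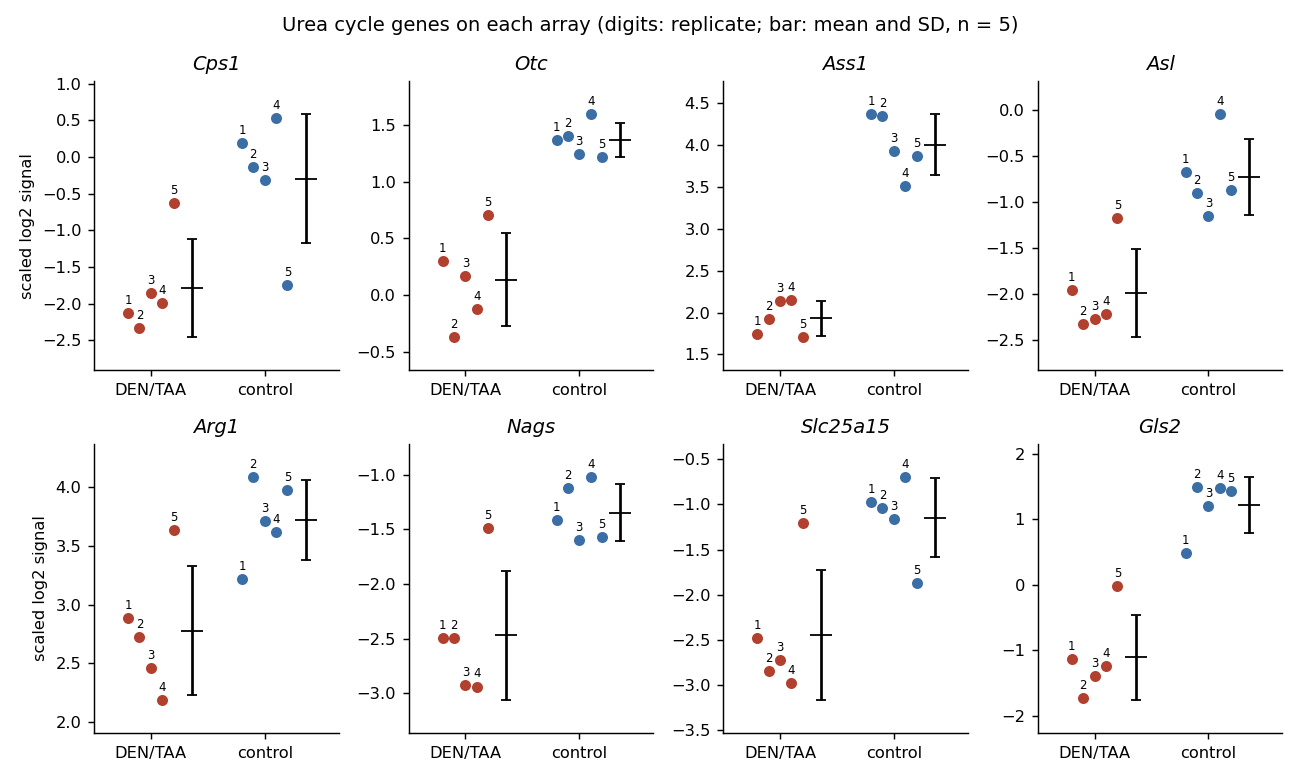
Scaled log2 signal (vertical axis) of each of the 8 urea cycle genes on each array, DEN/TAA livers left of control livers, with the replicate number above each point and the mean and SD (n = 5) beside the points. DEN/TAA rats 1 to 4 lie below all controls in all 8 panels, and DEN/TAA rat 5 is the highest treated rat in 7 of them. Rat 5 was set apart after these values were seen.

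The treated rats did not resemble each other equally. DEN/TAA rats 1 to 4 were below every control for all 8 genes, a pattern that 13.8% of all genes showed. Rat 5 was set apart after its values for these genes were seen, so this count is a description only. All 5 DEN/TAA rats were below every control for 4 genes (Otc, Ass1, Asl and Gls2), against 11.4% of all genes. DEN/TAA rat 5 was the highest treated rat for 7 genes. The mean over the 8 genes was 0.19 in DEN/TAA rat 5 and ranged from -0.93 to 0.19 in DEN/TAA rats, against 0.55 to 1.12 in control rats, where rat 5 was the lowest. In the same DEN/TAA rat the mean over 12 hepatocyte markers was 4.08, within the 3.90 to 4.10 of its group.

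Both groups were present on each of the 3 slides, and each slide was scanned in its own batch. On slide 1 (DEN/TAA rats 1 and 2, control rats 1 and 2) the differences ran from -2.52 for Ass1 to -0.85 for Arg1. On slide 2 (DEN/TAA rats 3 and 4, control rat 3) they ran from -2.52 for Gls2 to -1.10 for Asl. Slide 3 held only DEN/TAA rat 5 and control rats 4 and 5, and there Ass1 and Gls2 were still lower, at -1.98 and -1.47. On that slide the values were -0.72 for Asl, -0.69 for Otc, -0.20 for Nags, -0.16 for Arg1, -0.02 for Cps1 and 0.076 for Slc25a15. Slide 2 had a single control rat and slide 3 a single DEN/TAA rat, so the values within them carry no spread of their own. With slide as a block all 8 genes were called lower, where 1191 of the 6850 genes tested were lower and 2816 higher.

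The size of every difference depended on how the arrays were scaled, because the DEN/TAA arrays were brighter throughout. Spots well above background made up 36.1% to 46.6% on DEN/TAA arrays, against 16.5% to 32.9% on control arrays. Scaling took on average 1.48 more from the log2 signals of DEN/TAA arrays, while RNA spike-ins, added in equal amount, differed by 0.82. In unscaled linear signal the groups overlapped for all 8 genes: Cps1 lay between 800.2 and 3992 in DEN/TAA livers, against 228.1 and 3353 in control livers. Ass1 lay between 15321 and 22084 in DEN/TAA livers, against 11244 and 48142 in control livers.

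Scaled on the spike-ins, 2 of the 8 genes were called lower, Gls2 at -1.66 and Ass1 at -1.41 (limma adjusted p = 0.0009 and 0.0003), where 5.77% of all genes were lower and 64.9% higher. The others ran from -0.83 for Cps1 to -0.28 for Arg1, with limma adjusted p between 0.12 and 0.43. With no scaling, limma called 0 of the 8, and 0 had an unadjusted p under 0.05; Gls2 was at -0.84, Ass1 at -0.60, Cps1 at -0.01 and Arg1 at 0.53, where 1.84% of all genes were lower and 83.8% higher. The median of all genes moved with the scaling, from -0.28 with normexp to 0.99 on the spike-ins and 1.80 without scaling. Set against that median, Arg1 was at -1.27, Cps1 at -1.82, Ass1 at -2.40 and Gls2 at -2.65. These distances are the same with either percentile, with the spike-ins and without scaling, because each of these shifts all genes on an array alike. The other 3 ways could move them: with normexp Arg1 was at -0.60, Cps1 at -1.19, Ass1 at -1.71 and Gls2 at -1.91. With the authors' values Arg1 was at -0.63, Cps1 at -1.33, Ass1 at -1.78 and Gls2 at -2.11. These distances from the median of all genes were not tested.

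**Figure D2:**
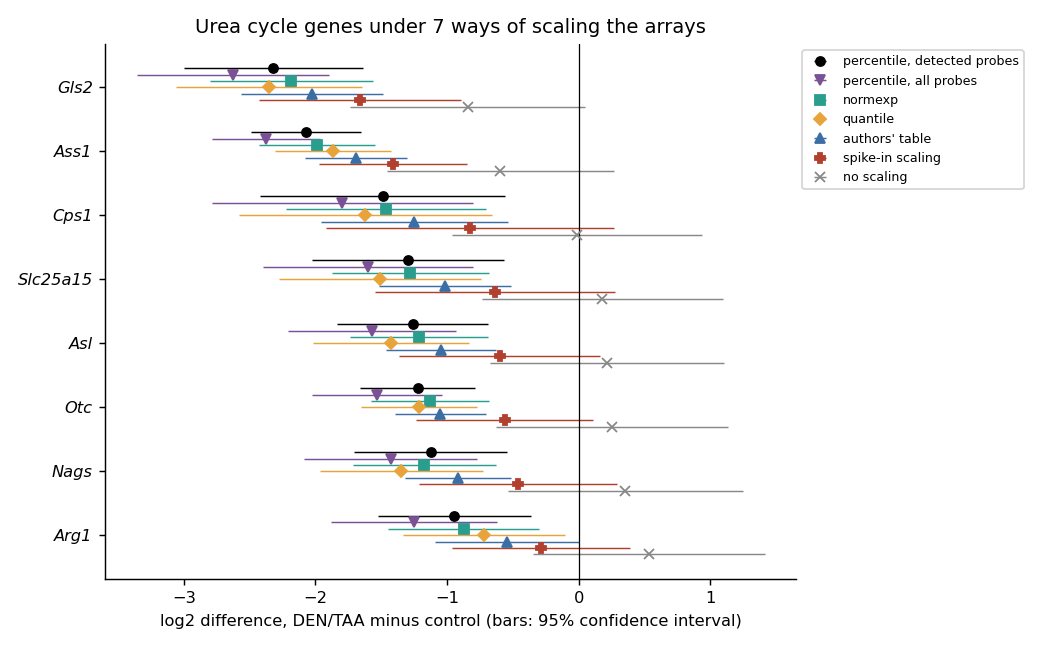
Log2 difference, DEN/TAA minus control (horizontal axis), of each urea cycle gene under 7 ways of scaling the arrays, with 95% confidence intervals as bars and the genes ordered by size. Black, violet, red and grey symbols keep the same distances between genes by construction, and without scaling the values run from -0.84 for Gls2 to 0.53 for Arg1.

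Hepatocyte genes in general were lower in the treated livers on the scaled signal. All 12 hepatocyte markers were above background on all 10 arrays. Of these, which include albumin and transthyretin, 10 were lower and 0 higher, where 16.3% of all genes were lower and 39.2% higher. Their median was -1.03, and they ranged from -2.06 for Apoc3 to 0.28 for Apoa1. Apoa1 and Tat, at -0.74, did not pass the test (limma adjusted p = 0.287 and 0.197). The mean level of the 12 was 3.90 to 4.10 in DEN/TAA rats, against 4.95 to 5.31 in control rats. Scaled on the spike-ins, 4 of the 12 were lower and 1 higher, where 5.77% of all genes were lower and 64.9% higher. Markers of other cells were higher: all 5 bile duct and progenitor genes tested, 10 of 11 macrophage genes, 7 of 10 stellate cell and fibroblast genes, 2 of 3 endothelial genes, 4 of 4 lymphocyte and neutrophil genes and 2 of 3 erythroid genes. Their mean levels did not overlap: bile duct genes lay at -2.62 to -1.83 in DEN/TAA rats, against -5.52 to -4.69 in control rats, and macrophage genes at -1.58 to -0.98, against -4.12 to -2.66. The median of each of these lists was above 0 under the 6 scalings, though endothelial and erythroid calls numbered 0 under at least 1 of them. Above background on no control array were 3 bile duct, 3 macrophage and 3 lymphocyte and neutrophil genes. These passed the filter through the DEN/TAA arrays alone and so had to be higher. The counts, mean levels and medians of their lists are therefore a description only. Of these markers, Krt19, a bile duct keratin, was at least 9.93-fold higher, and Lgals3, a macrophage lectin, differed by 3.65. The part of these cells in the values of the urea cycle genes was not tested.

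Set against the mean of the 12 hepatocyte markers on the same array, a measure added after the data were seen, 2 of the 8 genes were lower, where 4.1% of all genes were lower and 83.4% higher. Gls2 differed by -1.19 (SE 0.33, limma adjusted p = 0.0042), or 44.0% of control, and Ass1 by -0.94 (SE 0.22, limma adjusted p = 0.0015), or 52.2%. The other 6 did not pass the test: Cps1 was at -0.36 (95% confidence interval -1.28 to 0.57), Slc25a15 at -0.16, Asl at -0.13, Otc at -0.09 (-0.56 to 0.38), Nags at 0.01 and Arg1 at 0.19 (-0.41 to 0.79). This count leaned on the rats numbered 5 and on the values used. Without both of them, Cps1 at -1.02 and Slc25a15 at -0.66 were lower too (limma adjusted p = 0.001 and 0.007, 4 genes in all). With the authors' values, 7 genes were lower, all but Arg1. The share of all genes lower was not taken for these versions, so their counts are a description only.

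**Figure D3:**
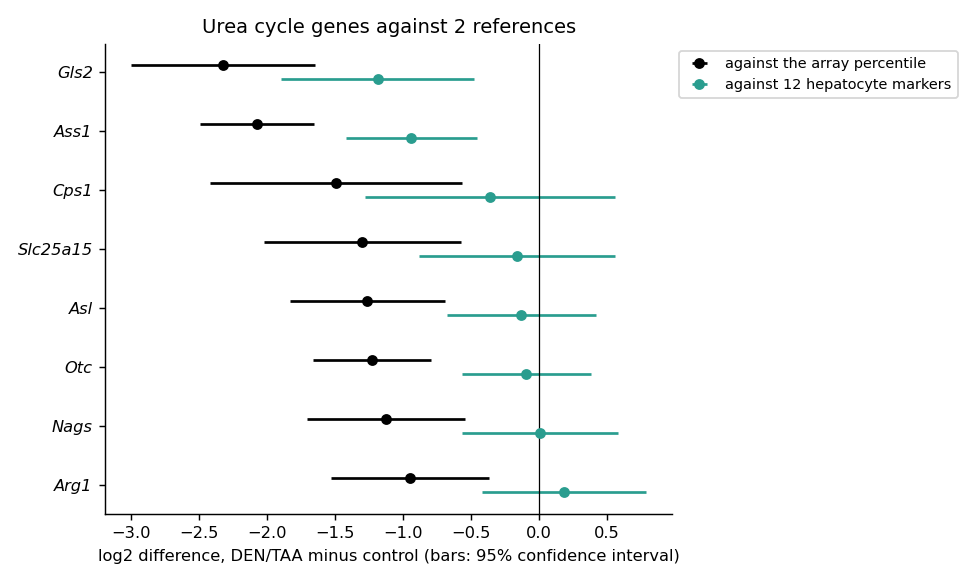
Log2 difference, DEN/TAA minus control (horizontal axis), of the 8 urea cycle genes set against each array's percentile (black) and against the mean of 12 hepatocyte markers on the same array (green), with 95% confidence intervals as bars. Against the hepatocyte markers, the intervals of Gls2 and Ass1 lie below 0 and those of the other 6 include it.

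Whether the 8 genes differed from each other was tested within arrays, where a shift of the whole array cancels. Relative to Cps1, limma called 0 of the other 7 genes and 0 had an unadjusted p under 0.05, where 78.1% of all genes were called in either direction. The estimates ran from -0.83 for Gls2 to 0.55 for Arg1 (95% confidence interval -0.59 to 1.68, limma adjusted p = 0.373), with an SE of 0.58. Without control rat 5, the low Cps1 liver among controls, Arg1 was higher relative to Cps1 by 0.97 (limma adjusted p = 0.035), where 90.3% of all genes were called. Relative to the mean of all 8, also added after the data were seen, Gls2 was lower, at -0.85 (SE 0.28, limma adjusted p = 0.0086), where 2.41% of all genes were lower and 87% higher. That mean includes Gls2 itself, which was already known to have the largest difference of the 8. Arg1 at 0.52 and Ass1 at -0.61 did not pass (limma adjusted p = 0.0821 and 0.0966).

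The profiles over the 10 arrays were compared by the root mean square difference of log2 signals after each gene's mean was removed, a smaller value meaning more alike. This is a description, over arrays that share the group difference. Otc and Asl were the closest pair (0.23), followed by Asl and Nags (0.24), and Cps1 and Ass1 the farthest apart (0.83). Outside the 8 genes, the mean profile of the 5 cycle enzymes was closest to Them7 (0.129), then Htra1, a serine protease, Il1rap, an interleukin 1 receptor subunit, Nr1h4, the bile acid receptor FXR, and Uox, urate oxidase (0.172). Otc was closest to Them7 (0.0989) and Nr1h4. Ass1 was closest to Apoc3, an apolipoprotein, and Pdk2, a kinase of pyruvate dehydrogenase. Slc25a15 was closest to Dmgdh, a mitochondrial enzyme of choline breakdown, and Fahd1, and Gls2 to Adhfe1 and Cyp4f4. The nearest genes were Htra1 and Pxdc1 for Asl, Rmdn2 and Nadk2 for Arg1, and Il1rap and Nrbf2 for Nags. Cps1 had no neighbour as close: Slc20a2, a phosphate transporter, was at 0.315.

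Enzymes that feed the cycle were measured with 20 genes on nitrogen supply and aspartate, of which 12 were lower and 1 higher (median -0.94). Of all genes 16.3% were lower and 39.2% higher. On the spike-ins 7 of the 20 were lower (median -0.28), where 5.77% of all genes were lower. Car5a, the mitochondrial carbonic anhydrase that supplies bicarbonate to Cps1, read -3.94, -4.69, -3.85, -3.83 and -2.85 in DEN/TAA rats 1 to 5, against -0.48, -0.54, -0.74, -0.49 and -0.99 in control rats 1 to 5. The groups were far apart, with a difference of -3.18 (SE 0.28), or 11.0% of control. Prodh and Prodh2, which start proline and hydroxyproline breakdown, were at -3.69 and -2.44. Glud1, glutamate dehydrogenase, which releases ammonia from glutamate, was at -0.29 and did not pass the test (limma adjusted p = 0.345). The gene that was higher was Slc1a5, a glutamine transporter, at least 2.26-fold and above background on no control array. It passed the filter through the DEN/TAA arrays alone and so had to be higher, and the count of higher genes in this list is a description only. With normexp Slc1a5 was at 0.17 and did not pass (limma adjusted p = 0.683), and with the authors' values it was at 0.53.

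Ammonia and glutamine handling outside the cycle was mixed. Of 7 genes tested, 4 were higher and 2 lower, where 39.2% of all genes were higher and 16.3% lower. Over the 6 scalings 2 to 5 were higher, and the median ranged from 0.12 to 1.53. Glul, glutamine synthetase of the pericentral cells, was lower, at -1.41 (SE 0.23) and Slc1a2, a glutamate transporter of the same cells, at -1.92, with 4 of 5 DEN/TAA arrays above background. Rhbg, an ammonia transporter of pericentral cells, was higher by 2.47 (SE 0.22), with 3 of 5 control arrays above background. Asns, asparagine synthetase, was at least 4.06-fold higher and above background on no control array. It thus passed the filter through the DEN/TAA arrays alone and had to be higher, and the count of the list is a description only.

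The pathways that use arginine and ornithine had 11 genes higher and 4 lower of 17, where 39.2% of all genes were higher and 16.3% lower. The median of the 17 was 0.94, which ranged from -0.27 to 1.60 over the 6 scalings. Of the 17, Nos3 and Aldh18a1 were above background on no control array. These 2 passed the filter through the DEN/TAA arrays alone and so had to be higher, and the count is a description only. Oat, ornithine aminotransferase, which removes ornithine toward glutamate, read -1.44, -2.06, -1.57, -1.53 and -1.18 in DEN/TAA rats 1 to 5, against 2.29, 3.32, 2.24, 2.30 and 2.89 in control rats 1 to 5. Its difference of -4.17 (SE 0.24) left 5.57% of control. Odc1, ornithine decarboxylase, which takes ornithine into polyamines, was higher by 2.04 (SE 0.16). Ddah2, which breaks down methylated arginines, was higher by 2.05 with 3 of 5 control arrays above background. Prmt1, which methylates arginine residues of proteins, was higher by 1.64. Gamt, of creatine synthesis, and Agmat, agmatinase, were lower, at -1.94 and -1.27.

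Of 2 channels tested, Aqp9, an aquaporin that carries urea and glycerol, was lower, at -0.88 and Aqp8 higher by 0.71 (limma adjusted p = 0.002 and 0.0042). Aqp9 did not pass the test on the spike-ins, nor Aqp8 with the percentile over all probes. Among 13 transcriptional and hormonal regulators known to bear on hepatocyte genes, 7 were lower and 0 higher (median -0.66). Of all genes 16.3% were lower and 39.2% higher. On the spike-ins 3 of the 13 were lower (median 0.0032), and over the 6 scalings 3 to 12. Onecut1, a hepatocyte transcription factor, was at -2.73, Gcgr, the glucagon receptor, at -1.34 and Nr1h4 at -1.17. Named after their values were seen, for their role at urea cycle promoters, Cebpa was at -1.75 and Hnf4a at -0.99 (limma adjusted p = 0.0005 and 0.0007). Cebpa was above background on 4 of 5 arrays in each group, and Hnf4a on 4 of 5 control arrays. Cebpb, of the same family as Cebpa, was at -0.19 and did not pass (limma adjusted p = 0.794). Nr3c1, the glucocorticoid receptor, in the same list, was at -1.07 (limma adjusted p = 0.0006). Any part of these regulators in the values of the urea cycle genes was not tested. Foxo1 at -0.40 and Ppara at -0.41 did not pass.

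Most zonation markers of both ends of the lobule were lower, where 16.3% of all genes were lower and 39.2% higher. Of 11 periportal genes 8 were lower and 0 higher (median -1.46), among them Igf1 at -1.79, Agxt at -2.62 and Cyp2f4 at -1.46. Sfxn1 at 0.54, Cdh1 at 0.35 and Ctsc at -0.37 did not pass the test. Of 11 pericentral genes 9 were lower and 1 higher (median -1.92), with Cyp1a2 at -4.43 and Lect2 at -1.94. Rhbg was the one that was higher. On the spike-ins 6 periportal genes were lower and 2 higher, and 6 pericentral genes were lower and 1 higher. There 5.77% of all genes were lower and 64.9% higher. Hal and Sds are in both the periportal and the nitrogen supply list, and Glul, Oat, Rhbg and Slc1a2 are in the pericentral list as well as in those above.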

How the data were processed

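Total RNA (150 ng per rat, 10 rats) was labelled with Cy3 and read on 1-colour Agilent 4x44K rat arrays. Per the file headers, Feature Extraction 11.5.1.1 wrote the deposited spot intensity values; version 15.5 stands in the submitters' processing notes. The processed intensity had each array's own background removed, per the file headers, and was not scaled between arrays. A table of log2 values made by the authors ranks spots as the median signal does (Spearman's rho of 1 on each array) with column medians of 8.592 to 8.594. It thus keeps the order of the median signal within an array and has nearly the same median on every array. How it was made is not given, and it served as an alternative.

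Here flagged and control spots were left out, spots of a probe averaged on the log2 scale, and each array's 75th percentile over the 6229 probes above background on all 10 arrays subtracted. A probe was kept if well above background on at least 5 arrays. Accessions of the array design, matched to RefSeq genes of GRCr8, gave 1 symbol to 17493 of 41012 probes, several to 0 and none to 23519. A gene with several probes was read from the brightest. The array was annotated on another build, so no gene coordinates are given beyond the RefSeq promoters. limma 3.58.1 in R 4.3.3 tested 6850 genes over all 10 arrays without covariates (two-sided, Benjamini-Hochberg, threshold 0.05), after a test on simulated data. The number of arrays limits the precision. A gene above background on no array of a group is given as at least N-fold, against, per array, its own signal or the dimmest probe above background, whichever is higher.

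The members, lists and tests were chosen with earlier results of these data known. Named were the 8 members, up to 3 genes per pathway list and 1 per cell marker list in each direction by adjusted p, 5 genes nearest to the mean of the 5 cycle enzymes and 2 nearest to each member; 1 named gene is not reported here. Alternatives were normexp (offset 50, on median spot signals in place of the planned mean signals, which were not at hand), quantile normalisation, the percentile over all probes, spike-in scaling on 5 probes, the authors' table, other filters, the mean over probes, slide and replicate blocks, and leaving out rats.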

Additional observations from a re-analysis of the deposited data

Results flagged for a closer look

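Among the 54 named genes, the highest or lowest rat stood away from its group of 5 in 7 of 108 groups, by a gap of more than 0.71 of the group's range; chance does this in about 1 in 20 groups. Of the 16 groups of the urea cycle genes, 2 were so marked. Cps1 in DEN/TAA rat 5 read -0.63, where the other DEN/TAA rats lay between -2.33 and -1.85. Slc25a15 in DEN/TAA rat 5 read -1.21, where the others lay between -2.98 and -2.48. The same rat stood high for Il1rap (-1.83) and Dmgdh (-1.90), which were named for profiles close to Nags, Cps1 and Slc25a15, so these 4 values are not separate observations. DEN/TAA rat 4 was low for Rhbg (-3.20) and high for S100a8, a neutrophil gene (-0.65). DEN/TAA rat 3 was high for Pdk2 (-0.075).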

How the results depend on the processing

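All 8 urea cycle genes were lower with normexp, with the percentile over all probes, without a filter, with a filter on all 10 arrays, with the mean over probes, with slide or replicate blocks, and without any 1 rat (largest limma adjusted p 0.0301, Cps1). The exceptions were Arg1 under quantile normalisation and with the authors' values, the spike-in scaling (2 genes lower) and no scaling (0 lower). Without scaling Otc was at 0.25, Asl at 0.21, Arg1 at 0.53, Nags at 0.35 and Slc25a15 at 0.18, and within slide 3 Slc25a15 was at 0.076; the cause was not tested. Over all genes, 2688 were higher and 1115 lower. Higher genes numbered 882 with normexp, 1615 with the percentile over all probes, 4449 with the spike-ins, 5740 without scaling and 1152 with the filter on all 10 arrays. Lower genes numbered 1946 with normexp, 395 with the spike-ins, 126 without scaling and 5799 without a filter. Relative to Cps1, leaving out 1 rat gave 0 to 1 genes called (1 without control replicate 5). Relative to the hepatocyte markers, 7 were lower in the authors' table, 4 without both replicates 5, and 2 to 3 without any 1 rat. The share of all genes lower was not taken for these counts.

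The replicate numbers are shared between the groups, but same-numbered rats deviated together with correlations of -0.22 to 0.20, and 1 of 5 was closest to its own number. As a hint from the data only, a replicate block gave 2684 higher and 1120 lower genes and all 8 urea cycle genes lower (Cps1 limma adjusted p = 0.0392). Over the 54 named genes and 1207 comparisons, 1159 kept direction and call, 42 lost the call and 6 changed sign. Of the named genes, only the 8 of the urea cycle were compared without scaling.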
